A study of Mus musculus with 8 samples.

Results

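Gata4, Gata5 and Gata6 are the GATA transcription factor genes of the heart and the endoderm, and they were taken by symbol as 3 of the 27998 gene rows of each count table, with 1 row each. Their molecules were counted in 2 single-cell RNA libraries of mouse embryoid body cells at day 5 of differentiation, 1 of wild type and 1 of Tet-triple knockout cells by their labels, called the WT and the TKO library from here on. The study's stated purpose is the part TET proteins play as mouse embryonic stem cells turn towards the heart. For both groups the labels describe the same stem cell line, E14-NKX2-5-EmGFP, kept on mitomycin C treated mouse embryonic fibroblasts and differentiated in hanging drops without leukemia inhibitory factor or any treatment. The sources used here do not give the deleted parts of the Tet genes, nor how many clones and cultures were used. The other 6 of the 8 samples, pull-downs of 5-hydroxymethylcytosine, were not analysed here. Each genotype has 1 library, so genotype, culture and preparation cannot be told apart, no test across libraries is possible, and every interval in brackets is a 95% interval that covers counting error only.

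GATA factors are zinc finger proteins that bind GATA motifs in enhancers and promoters. Gata4 and Gata6 act early in both endoderm, where they drive genes of the yolk sac and gut, and the mesoderm that forms the heart, where they work with Nkx2-5, Tbx5, Mef2c and Hand2 on genes of the contractile apparatus. Gata5 is best known from the heart, its inner lining and the gut. In RefSeq's GRCm38 annotation, the assembly that mm10 stands for, Gata4 lies on chromosome 14 from 63198914 to 63271712 and Gata5 on chromosome 2 from 180325088 to 180335503.

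The WT library held 4392 kept cells and 37529180 unique molecular identifiers (UMIs), and the TKO library 3197 kept cells and 33503021 UMIs, with medians of 7849.5 and 9679 UMIs per cell. The rows Tet1, Tet2 and Tet3 held 463, 256 and 1095 UMIs in the WT library and 764, 154 and 680 in the TKO library, which checks nothing about the labels as long as the deleted parts are not known. Levels below are CPM, a gene's summed UMIs in a group of cells per 1000000 UMIs of those cells, and a ratio is always TKO to WT unless said otherwise. Of the cell barcodes named in the 2 headers, 21 occurred in both.

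Cells were split by marker genes that leave out all 3 members. A cell counted as endoderm-gated with UMIs of at least 3 of 12 endoderm genes, 1 of them a transcription factor, as mesoderm-gated with at least 3 of 18 mesoderm genes and as contractile with at least 5 of 19 genes of the contractile apparatus. This gave 179 endoderm-gated, 3161 mesoderm-gated and 20 contractile cells in the WT library (4.08%, 72.0% and 0.455% of its cells) and 619, 1193 and 159 in the TKO library (19.4%, 37.3% and 4.97%). Genes that had no part in the split mostly followed the names. Epcam, an epithelial adhesion protein, stood at 359 and 528 CPM in endoderm-gated cells of the WT and TKO library and at 2.66 and 33.9 in mesoderm-gated cells. Vim, the intermediate filament of mesenchymal cells, stood at 948 and 393 CPM in mesoderm-gated cells and at 155 and 76.9 in endoderm-gated cells. Tnni1, a troponin of embryonic muscle, reached 1479 and 1059 CPM in contractile cells against 232 and 162 in mesoderm-gated cells. Krt8, an epithelial keratin, did not separate the WT gates, at 695 and 704 CPM in endoderm-gated and mesoderm-gated cells. Col1a1, the collagen gene also made by fibroblasts such as the feeders, differed between the libraries within a gate, at 196 CPM in WT and 0.486 in TKO mesoderm-gated cells. Median UMIs per cell were 7340 and 10676 in the endoderm gate, 7828 and 9518 in the mesoderm gate and 7505 and 9248 in the contractile gate.

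Over whole libraries Gata5 was lower and Gata6 slightly higher in the TKO library, and the Gata4 interval spans 1. Gata4 held 614 UMIs in the WT library (16.4 CPM) and 596 in the TKO library (17.8 CPM), a ratio of 1.09 (0.970 to 1.22). Gata5 was the scarcest, with 319 UMIs (8.50 CPM) and 177 UMIs (5.28 CPM), a ratio of 0.622 (0.514 to 0.749). Gata6 was counted most, with 3854 UMIs (103 CPM) and 4055 UMIs (121 CPM), a ratio of 1.18 (1.13 to 1.23). None of the 3 reached a 2-fold difference, which 12.3% of genes with at least 20 UMIs passed upwards and 11.3% downwards. Within the gates, Gata4 differed in opposite directions.

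**Figure D1:**
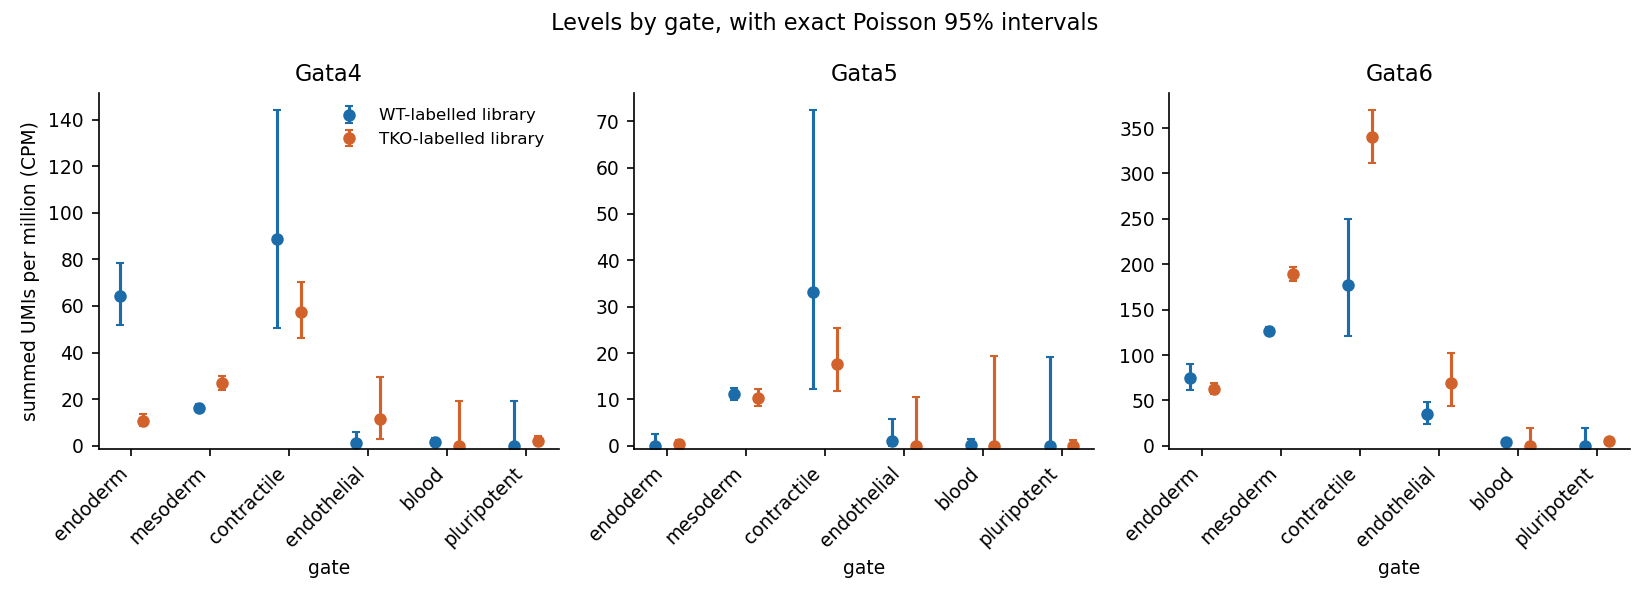
Level of each gene in 6 gates, in CPM, with a linear axis of its own in each panel. Points are the libraries (WT blue, TKO orange) and bars are exact Poisson 95% intervals for counting error. Gata4 in endoderm stands at 64.3 and 10.8 CPM, and Gata6 is highest in contractile cells of the TKO library at 339.7 CPM. Gata5 points lie at or near 0 outside mesoderm and contractile cells, with intervals up to 19.3 CPM where cells are few.

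In endoderm-gated cells Gata4 was the member that differed. It stood at 64.3 CPM in the WT library (95 UMIs, 52.0 to 78.5) and at 10.8 CPM in the TKO library (76 UMIs, 8.50 to 13.5). The 2 intervals lie far apart, and the ratio was 0.168 (0.123 to 0.229), a level 5.96-fold lower in the TKO library. A Gata4 UMI was found in 67 of 179 WT cells (37.4%) and in 57 of 619 TKO cells (9.21%), although the TKO cells were sequenced more deeply. Gata6 in the same cells stood at 75.1 CPM (111 UMIs, 61.8 to 90.4) in the WT library and 62.9 CPM (443 UMIs, 57.2 to 69.0) in the TKO library. Its ratio of 0.838 has an interval from 0.679 to 1.04 that reaches past 1, and it was 1.22 (0.858 to 1.75) when cells were thinned to 4000 UMIs and gated anew. Gata5 had 0 UMIs in WT and 3 UMIs in TKO endoderm-gated cells, at or under the limit of 3 counts, so no ratio is given. Among genes with at least 20 UMIs in endoderm-gated cells, 6.99% were at least 2-fold lower and 11.7% at least 2-fold higher in the TKO library, and the median log2 ratio of all of them was 0.22. Gata4 is in the first of these groups and Gata6 in neither.

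The endoderm of the 2 libraries was not of the same kind. Both carried the endoderm factors Foxa2 (80.5 CPM in WT, 91.1 in TKO) and Sox17 (89.3 and 136). The secreted proteins of visceral, yolk sac type endoderm differed by much more. Ttr, the carrier of thyroid hormone and retinol, stood at 6456 CPM in WT and 167 in TKO cells. Rbp4, the retinol-binding protein, stood at 2412 and 6.81 CPM. Hnf4a, a factor of visceral endoderm and liver, had 34 UMIs (23.0 CPM) in WT and 3 UMIs (0.426 CPM) in TKO cells. Trh, the precursor of thyrotropin-releasing hormone, ran the other way at 96.7 and 1805 CPM. All 8 genes of a visceral list were detected in both gates, and they summed to 6110 CPM in WT and 80.8 in TKO endoderm-gated cells.

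Gata4 was therefore also read in cells grouped by their Ttr UMIs, a split added after the data had been seen. With 5 or more Ttr UMIs, 161 WT cells held Gata4 at 64.6 CPM (86 UMIs, 51.7 to 79.8) and 50 TKO cells held it at 40.6 CPM (23 UMIs, 25.8 to 61.0). The ratio in these cells was 0.629 (0.379 to 1.01), and its interval does not reach the 0.168 of the whole gate. These cells were not matched, since Ttr itself stood at 7153 CPM in the WT and 1805 CPM in the TKO cells, and the visceral list summed to 6735 and 655 CPM. Gata6 in the cells with 5 or more Ttr UMIs was higher in the TKO library, at 75.9 and 115 CPM, a ratio of 1.51 (1.09 to 2.09). With 1 to 4 Ttr UMIs the libraries stood apart, with Gata4 at 87.2 CPM in 10 WT and 11.2 CPM in 87 TKO cells, a ratio of 0.129 (0.0456 to 0.392). The 482 TKO endoderm-gated cells with no Ttr UMI had Gata4 at 7.64 CPM (42 UMIs). Within the TKO library alone, cells with 5 or more Ttr UMIs were compared with cells with no Ttr UMI. Their level was 5.32-fold higher (3.05 to 9.05) for Gata4 and 2.12-fold higher (1.59 to 2.78) for Gata6. Only 8 WT endoderm-gated cells had no Ttr UMI, with 2 Gata4 UMIs among them, so the libraries cannot be compared there.

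**Figure D2:**
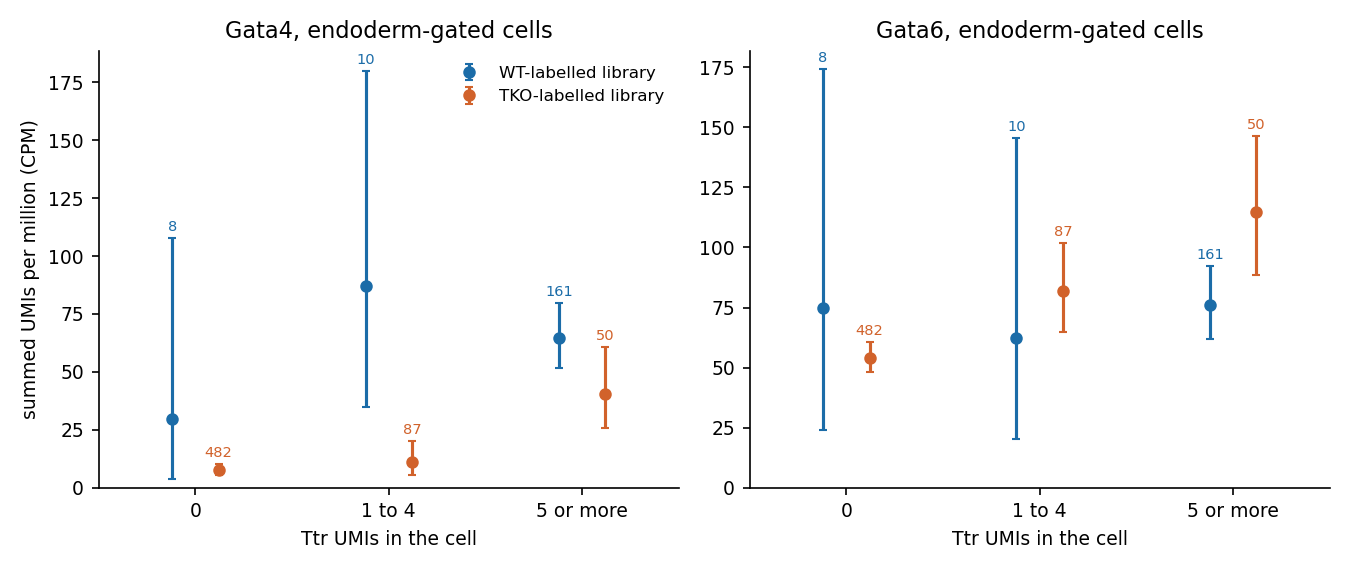
Gata4 (left) and Gata6 (right) in endoderm-gated cells grouped by their Ttr UMIs, in CPM. Points are the libraries (WT blue, TKO orange), bars are exact Poisson 95% intervals and the small numbers count cells. In the TKO library Gata4 goes from 7.64 CPM without Ttr to 40.6 CPM at 5 or more Ttr UMIs, next to 64.6 CPM in the WT library.

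Other splits of the endoderm gate were read for Gata4 as well, those by single genes again added after the data had been seen. Sox17 and Trh, like Ttr, also served to gate these cells. Just 5 TKO cells had at least 3 of the 8 visceral genes, and they held 9 Gata4 UMIs (127 CPM, 58.3 to 242), against 70.8 CPM (67 UMIs, 54.9 to 89.9) in 108 such WT cells, a ratio of 1.80 (0.789 to 3.63). Cells with fewer visceral genes had Gata4 at 52.6 CPM in 71 WT and 9.61 CPM in 614 TKO cells, a ratio of 0.183 (0.116 to 0.295). Those WT cells still carried the visceral list at a summed 2665 CPM against 47.5 in the TKO cells, so they were not alike in kind. Cells with an Rbp4 UMI had Gata4 at 68.6 CPM in 135 WT and 22.2 CPM in 31 TKO cells, a ratio of 0.324 (0.143 to 0.648), so here the libraries remained apart. The ratio was 0.251 (0.164 to 0.388) in cells with a Sox17 UMI and 0.0882 (0.0501 to 0.149) in cells without. It was 0.155 (0.0936 to 0.266) with and 0.272 (0.153 to 0.461) without a Trh UMI, and 0.320 (0.125 to 0.758) with and 0.155 (0.110 to 0.218) without an Nkx2-5 UMI. All of these intervals lie below 1, unlike those of the cells with 5 or more Ttr UMIs and of the cells with at least 3 visceral genes. Sox17, an endoderm factor, split the TKO cells as well. Gata4 was at 15.5 CPM in 305 TKO cells with a Sox17 UMI and 5.85 CPM in 314 without, a ratio with to without of 2.64 (1.56 to 4.65). In the WT library the same split gave 61.5 and 66.3 CPM, a ratio of 0.928 (0.600 to 1.42). TKO cells with a Trh UMI had less Gata4 than those without, at 9.62 and 17.7 CPM, a ratio of 0.544 (0.316 to 0.980). What part the kind of endoderm plays in the Gata4 difference of the whole gate was not tested beyond these values.

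In mesoderm-gated cells the direction was the opposite. Gata4 stood at 16.4 CPM in the WT library (438 UMIs, 14.9 to 18.0) and 26.9 CPM in the TKO library (332 UMIs, 24.1 to 29.97), a ratio of 1.64 (1.42 to 1.90). Gata6 stood at 126 CPM (3374 UMIs, 122 to 131) and 189 CPM (2332 UMIs, 181 to 197), a ratio of 1.50 (1.42 to 1.58). For both genes the TKO library was higher and the intervals do not overlap. Gata5 stood at 11.1 CPM (298 UMIs) and 10.2 CPM (126 UMIs), and its ratio of 0.916 (0.738 to 1.13) spans 1. Thinned to 4000 UMIs and gated anew, with 2560 WT and 654 TKO cells left in the gate, Gata5 had a ratio of 1.40 (0.952 to 2.01). No member passed 2-fold in this gate, where 10.3% of genes with at least 20 UMIs were at least 2-fold higher and 11.7% at least 2-fold lower, around a median log2 ratio of 0.10.

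Set against each other within a library, the endoderm and mesoderm levels of Gata4 changed order. Endoderm to mesoderm, the ratio was 3.92 (3.11 to 4.91) in the WT library and 0.401 (0.308 to 0.516) in the TKO library. For Gata6 endoderm was below mesoderm in both, at 0.595 (0.488 to 0.719) and 0.333 (0.300 to 0.368). For Gata5 the ratio was at most 0.182 in WT, with 0 UMIs in endoderm set to 3 counts, and 0.0417 (0.00849 to 0.125) in TKO, from 3 UMIs. Of the genes compared, 12.2% in WT and 8.62% in TKO were at least 2-fold higher in endoderm, and 19% and 7.68% at least 2-fold lower. In WT, Gata4 was thus among the higher and Gata5 among the lower genes, while in TKO all 3 members were among the lower.

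Mesoderm-gated cells were not uniform either, and the gap between the libraries in Gata4 and Gata6 was larger in cells with at least 2 heart progenitor genes than in the rest. Cells with UMIs of at least 2 of Isl1, Mef2c, Nkx2-5, Tbx5, Tbx20 and Smarcd3 numbered 734 in WT and 632 in TKO. In them Gata6 stood at 135 CPM (127 to 144) in WT and 238 CPM (227 to 250) in TKO, a ratio of 1.76 (1.62 to 1.90). In the remaining 2427 and 561 cells Gata6 stood at 123 and 125 CPM, a ratio of 1.02 (0.938 to 1.12). Gata4 followed the same pattern, at 20.7 and 35.0 CPM in progenitor-gene cells (ratio 1.69, 1.38 to 2.08) and 14.7 and 16.4 CPM in the others (ratio 1.12, 0.868 to 1.42), though these 2 intervals overlap at their ends. Gata5 stood at 13.4 and 14.1 CPM in progenitor-gene cells, a ratio of 1.05 (0.788 to 1.40). In the others Gata5 was lower in the TKO library, at 10.3 and 5.22 CPM, a ratio of 0.508 (0.329 to 0.757). The 6 progenitor genes themselves summed to 155 CPM in WT and 393 CPM in TKO mesoderm-gated cells, though not each was higher in TKO. Progenitor-gene cells of the libraries were thus not matched in kind.

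Single genes were also used to split the mesoderm gate, a choice made after the values were seen, and the first was Mef2c, a MADS-box factor of the heart field. In TKO mesoderm-gated cells Gata6 was at 243 CPM in 639 cells with a Mef2c UMI and 119.6 CPM in 554 without, a ratio of 2.03 (1.85 to 2.23). Gata4 was at 36.2 and 15.0 CPM in the same cells, a ratio of 2.41 (1.87 to 3.14). WT cells showed a smaller gap, with Gata6 at 136 and 124 CPM and Gata4 at 25.3 and 14.5 CPM. In cells without a Mef2c UMI, Gata6 and Gata4 did not differ between the libraries beyond counting error. Their ratios were 0.964 (0.883 to 1.05) and 1.03 (0.800 to 1.32). Gata5 was lower in these cells of the TKO library, with a ratio of 0.620 (0.426 to 0.878). Isl1, which marks the second heart field, did not separate the TKO cells for Gata4, at 26.9 CPM in 529 cells with and 26.9 CPM in 664 cells without an Isl1 UMI. Between the libraries, cells without an Isl1 UMI differed as the whole gate did, with ratios of 1.63 (1.36 to 1.95) for Gata4 and 1.47 (1.37 to 1.57) for Gata6. Foxf1, a factor of lateral and splanchnic mesoderm, split them like Mef2c, with Gata6 at 259.5 CPM in 482 TKO cells with a UMI and 140.1 CPM in 711 without. Cells without a Foxf1 UMI still differed between the libraries. The ratios were 1.32 (1.08 to 1.61) for Gata4, 1.14 (1.06 to 1.23) for Gata6 and 0.703 (0.509 to 0.957) for Gata5. Foxc1, a factor of paraxial mesoderm, split them the other way. Gata6 was at 144 CPM in 411 TKO cells with a Foxc1 UMI and 216 CPM in 782 without, a ratio of 0.669 (0.611 to 0.733). Just 11 WT mesoderm-gated cells had a Foxc1 UMI. Foxf1 and Foxc1 also served to gate these cells.

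Median depths of the gate were 7828 and 9518 UMIs, so a UMI of a splitting gene was more easily found in a TKO cell, and the part of depth in these splits was not tested. The make-up of the gate also differed in Hand1, a factor of extraembryonic and lateral mesoderm, which had a UMI in 3098 of 3161 WT cells and 243 of 1193 TKO cells. Hand1 also served to gate these cells. Among cells with a Hand1 UMI the TKO library was still higher, with ratios of 1.40 (1.05 to 1.83) for Gata4 and 1.46 (1.32 to 1.60) for Gata6. At least 3 of 8 mesothelium genes were found in 412 WT cells and 0 TKO cells of the gate. The 8 genes were each detected in TKO mesoderm-gated cells, at a summed 27.6 CPM against 220 CPM in WT. Gata4 in those 412 WT cells stood at 19.2 CPM against 15.8 CPM in the other WT mesoderm-gated cells.

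Contractile cells had the highest point value of every member within their library. Gata4 stood at 88.7 CPM in 20 WT cells (16 UMIs, 50.7 to 144) and 57.3 CPM in 159 TKO cells (91 UMIs, 46.2 to 70.4). Gata5 stood at 33.2 CPM (6 UMIs, 12.2 to 72.4) and 17.6 CPM (28 UMIs, 11.7 to 25.5). Gata6 stood at 177 CPM (32 UMIs, 121 to 250) and 339.7 CPM (539 UMIs, 312 to 370), and a Gata6 UMI was found in 148 of the 159 TKO cells. With 20 WT cells the comparison is coarse. The cells were also not matched, since the 19 contractile genes summed to 10844 CPM in WT and 4557 CPM in TKO contractile cells. The ratio of Gata6 was 1.92 (1.34 to 2.83), while those of Gata4 at 0.647 (0.378 to 1.18) and Gata5 at 0.531 (0.216 to 1.57) have intervals on both sides of 1. With 3 contractile genes in place of 5 as the minimum, the ratios of Gata4 and Gata5 turned to 1.39 (0.941 to 2.11) and 1.94 (0.921 to 4.70). No member passed 2-fold, against 12.2% of genes higher and 7.07% lower.

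Compared with mesoderm-gated cells of the same library, Gata4 in contractile cells was 5.41-fold higher (3.07 to 8.89) in WT and 2.13-fold higher (1.67 to 2.69) in TKO. Gata5 was 2.98-fold (1.09 to 6.57) and 1.73-fold higher (1.10 to 2.62). Gata6 was 1.40-fold (0.959 to 1.99) and 1.80-fold higher (1.63 to 1.97). Past 2-fold were thus Gata4 and Gata5 in WT, where 20.6% of genes were at least 2-fold higher and 10.5% lower. In TKO it was Gata4 alone, where 3.26% of genes were higher and 6.2% lower. These shares add 0.5 UMIs to each count, so a gene with 0 UMIs in the small WT contractile gate can count as higher. Gata1, with 0 UMIs there and 25 in WT mesoderm-gated cells, is an example. Part of the 20.6% can thus rest on genes not detected in contractile cells.

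Levels were also read along the number of contractile genes a cell carried, over mesoderm-gated and contractile cells together. In the TKO library Gata6 went from 149 CPM in 642 cells with no contractile gene through 176, 266, 306 and 319 CPM to 366 CPM in the 68 cells with 7 or more. Gata4 went from 22.3 CPM to 57.9 CPM over the same cells, with 36.5 CPM at 3 to 4 genes. Gata5 went from 7.02 CPM without a contractile gene to 19.2 CPM at 2 genes and stayed between 16.9 and 17.9 CPM beyond that. The interval of Gata6 at 2 contractile genes (241 to 292) already lies above that without any (140 to 159), and for Gata5 too the intervals part (13.1 to 27.3 and 5.10 to 9.43). With cells thinned to 4000 UMIs and gated anew, the bins of Gata6 in the TKO library held 172, 289.9, 273, 413, 358 and 427 CPM, so it was above the first bin in all later ones but did not climb at each step. The Gata5 intervals then overlapped, at 11.8 CPM (7.29 to 18.0) without a contractile gene and 23.3 CPM (6.34 to 59.5) at 2. In the WT library Gata6 stayed between 123 and 136 CPM up to 4 contractile genes, where TKO cells had reached 306. Beyond that the WT library had 8 and 12 cells, with Gata6 at 206 and 158 CPM and Gata4 at 82.4 and 92.9 CPM. Gates and counts of contractile genes share the cells' own RNA, so these levels describe the cells and are not a test.

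**Figure D3:**
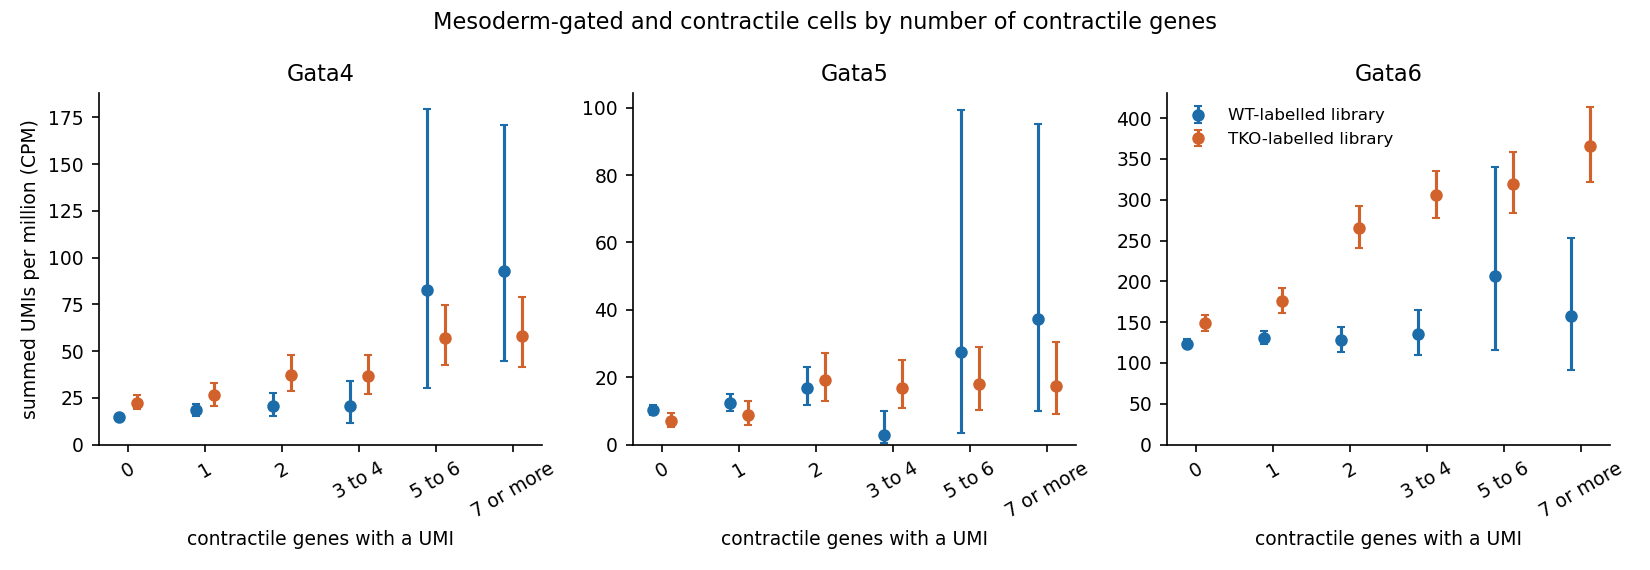
Levels of the 3 genes in mesoderm-gated and contractile cells, grouped by how many of 19 contractile genes had a UMI in the cell. The vertical axis is CPM, points are the libraries (WT blue, TKO orange), and bars are exact Poisson 95% intervals. Gata6 in the TKO library runs from 149 to 366 CPM, and the wide WT bars at 5 or more genes rest on 8 and 12 cells.

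Blood-gated and pluripotent-gated cells held few UMIs of the members. In blood-gated cells Gata4, Gata5 and Gata6 had 6, 1 and 14 UMIs over 408 WT cells (1.55, 0.258 and 3.61 CPM). Over 20 TKO cells they had 0 UMIs each, with an upper limit of 19.3 CPM. In pluripotent-gated cells they had 0 UMIs each over 23 WT cells, with an upper limit of 19.2 CPM. Over 206 TKO cells they had 6, 0 and 15 UMIs (1.97, 0 and 4.93 CPM). Median depths were 9303.5 UMIs in WT blood and 14691 UMIs in TKO pluripotent cells. Whether these few UMIs came from free RNA, doublets or the cells themselves was not tested. All endoderm, mesoderm and contractile point values of Gata4 and Gata6 lie above these levels. The 3 UMIs of Gata5 in TKO endoderm, 0.426 CPM, do not stand clear of them. Endothelial-gated cells had Gata6 at 34.9 CPM in 140 WT cells (24.2 to 48.7) and 68.7 CPM in 33 TKO cells (44.0 to 102), and Gata4 with 1 and 4 UMIs.

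The order of gates differed between members. Gata4 in WT ran contractile, endoderm, mesoderm, with the first pair overlapping in their intervals, and in TKO contractile, mesoderm, endoderm, with no overlap between them. Gata6 ran contractile, mesoderm, endoderm, endothelial in WT, with the first pair overlapping again, and the TKO order was the same but for endoderm and endothelial, which overlap. Gata5 ran contractile, then mesoderm, with endoderm at or near 0 in both libraries. With 0 UMIs in TKO endothelial and blood cells, its upper limits of 10.6 and 19.3 CPM lie above TKO mesoderm at 10.2 CPM. Those gates cannot be placed in the order.

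**Figure D4:**
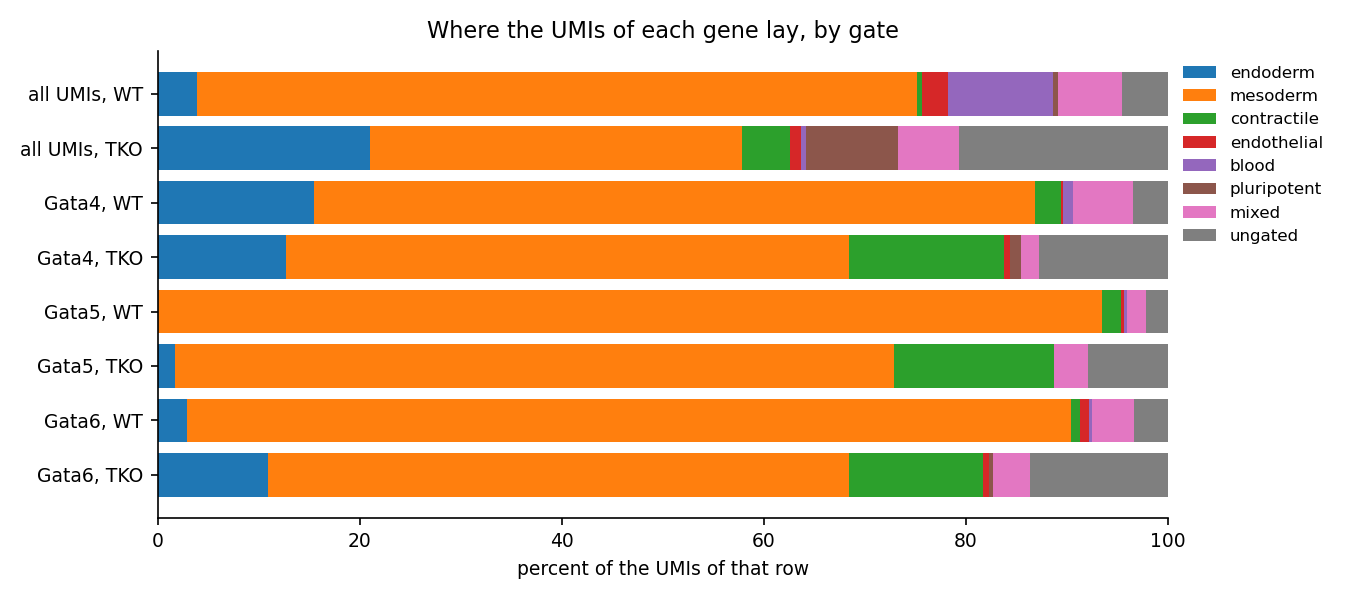
Share of each library's UMIs that lay in each gate, for all genes together and for each member, as stacked bars adding up to 100 percent. Endoderm-gated cells held 3.94% of all UMIs and 15.5% of Gata4 UMIs in the WT library, and 21.0% and 12.8% in the TKO library.

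The near-equal whole-library levels of Gata4 were made up differently by gate. Endoderm-gated cells held 15.5% of Gata4 UMIs in WT and 12.8% in TKO, mesoderm-gated cells 71.3% and 55.7%, and contractile cells 2.61% and 15.3%. Gata5 had 93.4% of its UMIs in mesoderm-gated cells in WT and 71.2% in TKO, with 1.88% and 15.8% in contractile cells. For Gata6 the mesoderm-gated share was 87.5% and 57.5%, and the endoderm-gated share 2.88% and 10.9%. Weighting the TKO levels of each gate by the WT shares of UMIs gave 21.0 CPM for Gata4, 7.66 for Gata5 and 149 for Gata6, against 16.4, 8.50 and 103 measured in the WT library. With the WT levels and the TKO shares the figures were 27.2, 6.69 and 90.8 CPM, against 17.8, 5.28 and 121 measured in the TKO library.

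The share of Gata4 in the summed Gata4 and Gata6 UMIs also differed between gates. UMIs of 2 genes are not captured alike, so this share is compared between gates only. Gata4 made up 46.1% of Gata4 and Gata6 UMIs in WT endoderm-gated cells (39.2 to 53.2) and 14.6% in TKO endoderm-gated cells (11.7 to 18.0). In mesoderm-gated cells it made up 11.5% (10.5 to 12.5) and 12.5% (11.2 to 13.8), and in contractile cells 33.3% (20.4 to 48.4) and 14.4% (11.8 to 17.4). The intervals of the TKO gates overlap one another, those of WT endoderm and WT contractile cells do as well, and that of WT mesoderm lies below both.

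Whether single cells carried 2 members at once was counted after thinning each cell to 4000 UMIs, which left out 373 WT and 190 TKO cells. In TKO mesoderm-gated cells, 75 of 112 cells with a Gata4 UMI also had Gata6 (67.0%, 57.4 to 75.6), against 472 of 1054 without Gata4 (44.8%, 41.8 to 47.8). In TKO endoderm-gated cells the figures were 12 of 25 (48%, 27.8 to 68.7) and 125 of 563 (22.2%, 18.8 to 25.9). TKO contractile cells showed no such gap, with 25 of 31 (80.6%, 62.5 to 92.5) and 96 of 122 (78.7%, 70.4 to 85.6). In WT cells the intervals of the paired shares overlapped, with 80 of 184 (43.5%) and 1064 of 2776 (38.3%) in mesoderm-gated cells and 8 of 40 (20%) and 35 of 130 (26.9%) in endoderm-gated cells. Cells with a UMI of all 3 members were rare, at 6 of 2960 WT and 4 of 1166 TKO mesoderm-gated cells. At this depth 55.7% of WT and 48.5% of TKO mesoderm-gated cells had no UMI of any member, and a cell without a UMI is not shown to lack the transcript. Unthinned, a Gata6 UMI was found in 58.3% of WT and 70.7% of TKO mesoderm-gated cells.

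The other 3 genes of the family, Gata1, Gata2 and Gata3, are known from blood, blood progenitors and trophoblast or surface ectoderm. Gata1, which also served to gate blood cells, stood at 17.1 CPM over the WT library and 1.22 CPM over the TKO library, where 408 and 20 cells were blood-gated. Gata2 stood at 5.12 and 5.88 CPM over the libraries, and in mesoderm-gated cells at 0.636 CPM (17 UMIs) and 5.75 CPM (71 UMIs), a ratio of 9.05 (5.27 to 16.4). Gata3 in endoderm-gated cells stood at 25.0 CPM (37 UMIs) and 65.3 CPM (460 UMIs), a ratio of 2.61 (1.86 to 3.75), in the direction opposite to Gata4. In mesoderm-gated cells Gata3 stood at 16.1 and 17.6 CPM.

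Cofactors and partners of the 3 factors were read from a list of 14 genes. In mesoderm-gated cells all 14 had at least 20 UMIs, 3 were at least 2-fold higher in the TKO library (10.3% of all genes) and 1 lower (11.7% of all genes), with a median log2 ratio of 0.20 against 0.10 for all genes. The 3 were Mef2c at 30.2 and 206 CPM (ratio 6.80, 6.28 to 7.37), Isl1 at 6.17 and 89.5 CPM (ratio 14.5, 12.3 to 17.2) and Nkx2-5, the cardiac homeobox factor, at 1.23 and 16.1 CPM (ratio 13.1, 9.01 to 19.5). The lower one was Tbx20, a T-box factor of the heart, at 55.1 and 26.8 CPM (ratio 0.487, 0.431 to 0.549). Zfpm1 and Zfpm2 encode the Friend of GATA proteins that bind the factors directly. Zfpm1 stood at 16.1 and 24.4 CPM (ratio 1.52, 1.30 to 1.76), a ratio near those of Gata4 and Gata6, and Zfpm2 at 7.48 and 5.59 CPM (ratio 0.747, 0.560 to 0.987). Tbx5 was at 4.86 and 3.57 CPM, Hand2 at 114 and 97.5 CPM, the chromatin remodelling subunit Smarcd3 at 57.7 and 51.5 CPM, and Mef2a at 27.9 and 21.2 CPM. Hand2 also served to gate these cells. The serum response factor Srf was at 20.6 and 25.5 CPM, the signal transducers Smad1 and Smad4 at 26.8 and 32.0 and at 44.3 and 49.0 CPM, and the acetyltransferase Ep300 at 21.7 and 27.3 CPM.

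In endoderm-gated cells 10 of the 14 partners had at least 20 UMIs, 0 of them were at least 2-fold higher in the TKO library (11.7% of all genes) and 3 lower (6.99% of all genes), with a median log2 ratio of -0.36 against 0.22 for all genes. The 3 were Tbx20 at 17.6 and 6.10 CPM, Nkx2-5 at 24.3 and 11.2 CPM and Smarcd3 at 9.47 and 4.40 CPM. Zfpm1 was lower as well, at 27.1 and 15.6 CPM (ratio 0.577, 0.399 to 0.851). Isl1 did not differ beyond counting error, at 109.6 and 121 CPM (ratio 1.10, 0.929 to 1.31). In contractile cells Mef2c was at 482 and 693 CPM and Isl1 at 22.2 and 132 CPM, while Nkx2-5 was at 205 and 75.0 CPM and Tbx20 at 127 and 41.0 CPM.

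**Figure D5:**
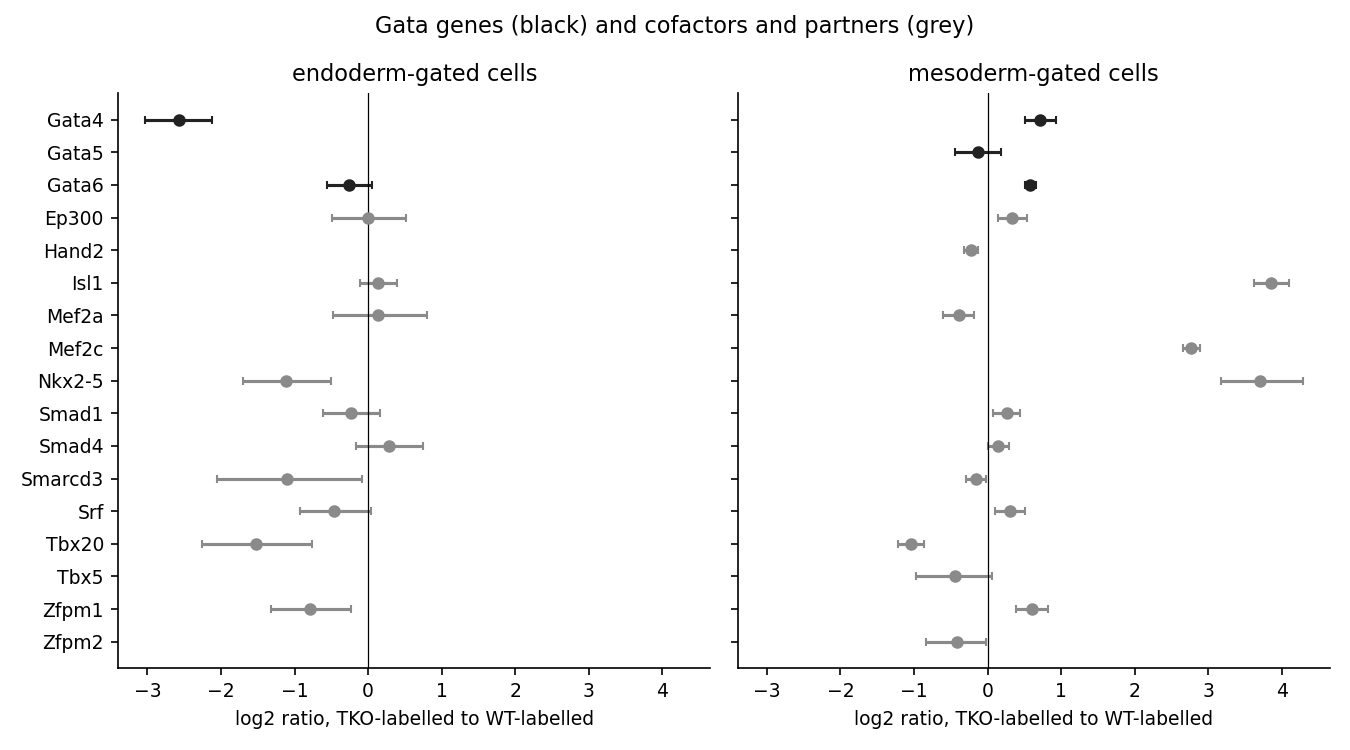
Ratio of the TKO to the WT library, as log2, for the 3 members (black) and for cofactors and partners with at least 20 UMIs (grey), in endoderm-gated (left) and mesoderm-gated (right) cells. Bars are exact 95% intervals for counting error and the vertical line marks equal levels. Gata4 lies at -2.57 in endoderm and 0.72 in mesoderm, and Isl1, Nkx2-5 and Mef2c lie farthest to the right in mesoderm.

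Signals and factors that act ahead of the Gata genes were read from 9 inducers, of which 8 were found by symbol. In mesoderm-gated cells 7 of them had at least 20 UMIs, 4 were at least 2-fold higher in the TKO library (10.3% of all genes) and 1 lower (11.7% of all genes), with a median log2 ratio of 2.32 against 0.10. Fgf8, a growth factor of early mesoderm, was at 2.77 and 29.3 CPM (ratio 10.6), Mesp1, a factor of the first heart progenitors, at 0.973 and 10.2 CPM (ratio 10.5), and Eomes, a T-box factor of mesoderm and endoderm, at 1.23 and 9.08 CPM (ratio 7.35). Mesp1 also served to gate these cells. Mixl1 had 11 and 10 UMIs, and Bmp2 was at 28.2 and 30.3 CPM. Bmp4, a known inducer of Gata4 in mesoderm, was lower in the TKO library, at 169 and 77.2 CPM (ratio 0.456, 0.425 to 0.489). In endoderm-gated cells Bmp4 was at 18.9 and 4.97 CPM.

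Genes of the endoderm programme, several of them targets of Gata4 or Gata6 in yolk sac endoderm, were also counted in endoderm-gated cells. Of 12, 11 had at least 20 UMIs, 0 were at least 2-fold higher in the TKO library (11.7% of all genes) and 5 lower (6.99% of all genes), with a median log2 ratio of -0.80 against 0.22 for all genes. Lowest were Hnf4a (ratio 0.0185, 0.00364 to 0.0589) and the endocytic adaptor Dab2 at 147 and 17.0 CPM (ratio 0.116, 0.0921 to 0.146). Laminin and collagen chains of the basement membrane were lower too, with Lamb1 at 80.5 and 35.1 CPM and Col4a2 at 143 and 63.6 CPM. At the other end stood Sox17 (ratio 1.53, 1.27 to 1.85), Lama1 with 3 and 18 UMIs and Lamc1 at 16.2 and 19.7 CPM. Some genes of the list, such as Hnf4a, Foxa2 and Sox17, also served to gate these cells.

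Genes of the cardiac programme that Gata factors are known to act on ran in both directions in mesoderm-gated cells. Of 12, 9 had at least 20 UMIs, and 5 were at least 2-fold higher in the TKO library (10.3% of all genes) and 2 lower (11.7% of all genes), with a median log2 ratio of 1.09 against 0.10. The atrial light chain Myl7 was at 4.00 and 26.1 CPM (ratio 6.52, 5.22 to 8.19), the slow myosin Myh7 at 0.112 and 3.00 CPM (3 and 37 UMIs) and Tnni3, cardiac troponin I, at 0.486 and 1.78 CPM. All 3 are contractile gate genes, so a mesoderm-gated cell holds at most 4 of that list. Corin, the protease that matures natriuretic peptides, was at 1.53 and 0.243 CPM (41 and 3 UMIs) and the potassium channel gene Kcnh2 at 15.1 and 3.65 CPM. In contractile cells 7 of the 12 had at least 20 UMIs, 0 were at least 2-fold higher in the TKO library (12.2% of all genes) and 3 lower (7.07% of all genes), with a median log2 ratio of -0.82 against 0.08, among them cardiac actin Actc1 at 515 and 68.1 CPM (ratio 0.132, 0.0992 to 0.176), with Myh7 at 177 and 71.8 and Myl7 at 4195 and 1715 CPM. Ccnd2, a cyclin that Gata4 is known to act on, was at 288 and 376 CPM.

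The genes most like each member over the gates were found by Pearson's r of log2(CPM + 1) over 12 gate-by-library groups, among 8263 genes with at least 20 CPM in 1 group. The 12 groups come from 2 libraries, so the values of r are descriptions. For Gata4 they were Pth1r, a receptor of parathyroid hormone (r = 0.949), Eno3 (0.939), Gpc3 (0.931), Fos (0.929) and Tbx20 (0.917). Pth1r fell from 74.4 CPM in WT endoderm to 27.3 in WT mesoderm, as Gata4 did. In TKO cells Pth1r still fell, from 47.8 to 37.5 CPM, while Gata4 rose from 10.8 to 26.9 CPM. For Gata5 they were Foxf1 (0.961), Bves (0.959), Fhod3 (0.942), Tnni1 (0.941) and Tbx2 (0.938), the muscle genes among them being the membrane protein Bves, the actin regulator Fhod3 and the troponin Tnni1. Foxf1 also served to gate mesoderm, so its r with Gata5 over these gates is in part set by the gating. For Gata6 they were Mxd4 (0.962), Trim35 (0.961), Fos (0.957), Trp53inp2 (0.957) and Meis1 (0.951). Gata4 and Gata6 had an r of 0.894 with each other, Gata4 and Gata5 one of 0.672, and Gata5 and Gata6 one of 0.702.

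Antisense neighbours were read because strand handling is not given in the sources used here. Gata5os, which overlaps the Gata5 locus, had 1 UMI in each library. The row 1010001N08Rik, an older name of the antisense transcript next to Gata6, had 374 UMIs (9.97 CPM) in the WT and 547 UMIs (16.3 CPM) in the TKO library. It ran with Gata6 by gate, at 12.0 and 26.1 CPM in mesoderm-gated cells (ratio 2.17, 1.85 to 2.54), 6.09 and 3.69 CPM in endoderm-gated cells and 38.8 and 75.0 CPM in contractile cells. Without strand, its reads and those of Gata6 cannot be fully told apart.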

How the data were processed

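For each single-cell library the authors deposited a table of whole-number counts with genes in rows and cells in columns, read here as UMI counts. Per the submitters' processing notes, Seurat 3 and mm10 were used, with no role stated; the sources used here give no aligner, chemistry or strand. The TKO header named 3224 cells and its rows held 3223 values, so cells were read by position, and 116 row names with -2 in place of -1 were matched by position. Cells with over 15% mitochondrial UMIs were left out (3 WT, 26 TKO). Scrublet in scanpy 1.11.5 marked 3 and 1 cells as doublets and is taken not to have worked, so no doublet was removed. The 160 WT and 120 TKO cells that passed several gates were left out of every gate. CPM have exact Poisson and ratios exact binomial 95% intervals, and shares Clopper-Pearson intervals; a count of 0 was set to 3 for a bound. Background shares cover genes with at least 20 UMIs and a 2-fold difference, with 0.5 UMIs added to each count. Named genes were the members, the family and partner lists, up to 3 genes at either end of the other lists and the 5 genes most alike; names outside this rule (such as Lamb1, Col4a2 and the Tet genes) and all splits by Ttr, Rbp4, Sox17, Trh, Nkx2-5, Mef2c, Isl1, Foxf1, Foxc1 and Hand1 were chosen after values were seen. Members and lists were chosen with earlier results of these data known. The ratio intervals were run on simulated Poisson counts. These hold no spread between cells or libraries, so the run checks the calculation only. Alternatives were 10 planned and 3 chosen after seeing the data. A gene that the naming rule selects is not reported here.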

Additional observations from a re-analysis of the deposited data

Results flagged for a closer look

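Gata4 stood out because the 2 cell groups ran in opposite directions between the same libraries. Its TKO to WT ratio was 1.64 in mesoderm-gated cells and 0.168 in endoderm-gated cells. Read within each library, the endoderm to mesoderm ratio of Gata4 was 3.92 in WT and 0.401 in TKO. The difference between these ratios was not tested, since each group has 1 library.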

How the results depend on the processing

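No paired analysis was possible because each single-cell group has 1 library and the numbered pull-downs were not analysed here; for the same reason no replicate could be left out. In all, 17 ratios were recomputed, giving 181 values under 13 alternatives. Of these values, 168 were counted as the same and 13 as moved. The same meant within the main counting interval. For the Gata5 endoderm to mesoderm bound in WT, which has no interval, it meant a bound in the same direction. The Gata4 ratio in endoderm-gated cells ran from 0.138 to 0.182 and in mesoderm-gated cells from 1.51 to 1.87. The Gata6 ratio in mesoderm-gated cells was 1.38 with 1 marker gene fewer, 1.38 with 3 contractile genes, 1.68 in cells thinned to 4000 UMIs and gated anew and 1.60 as a mean over cells. In thinned cells the ratio was 1.40 for Gata5 in mesoderm-gated cells and 1.22 for Gata6 in endoderm-gated cells, and the endoderm to mesoderm ratio of Gata6 in TKO was 0.399. With 3 contractile genes the contractile ratios were 1.39 for Gata4 and 1.94 for Gata5. As a mean over cells the whole-library ratio of Gata6 was 1.30. The endoderm to mesoderm ratio of Gata5 in WT was 0.0650 with 1 marker gene more, 0.0457 with cells of several gates counted as endoderm and 0.0567 with Hand1 left out of the mesoderm gate, each from 1 UMI. These values count as moved only because a ratio took the place of a bound, and they lie under the main bound of 0.182. The cause of the other shifts was not tested. Gata5 in endoderm-gated cells gives no TKO to WT ratio at this depth, and of the splits within a gate that by contractile genes alone was recomputed in thinned cells, where Gata6 in TKO cells with 1 such gene was at 289.9 in place of 176 CPM.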

Other observations

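Cells outside the compared gates also carried the members. The 301 WT and 847 TKO cells that passed no gate had Gata6 at 76.2 and 80.0 CPM, Gata4 at 12.3 and 10.9 CPM and Gata5 at 4.11 and 2.02 CPM. Cells that passed several gates had Gata6 at 66.4 and 72.8 CPM and Gata4 at 15.5 CPM (37 UMIs) and 5.49 CPM (11 UMIs). Of them, 21 of 160 in WT and 89 of 120 in TKO passed the endoderm and mesoderm gates and no other. The highest count of Gata6 in a single cell was 15 UMIs, in an ungated TKO cell.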
